A study of Mus musculus with 20 samples.

Results

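The genes described here encode the subunits, caps and assembly factors of the proteasome. They were taken as every gene symbol that starts with Psm, followed by a letter from a to g and a number. There were 44 of them among the 13688 genes present in all 4 deposited tables, and each of the 44 was present in every table. The study measured RNA from mouse primary cortical neurons, isolated at embryonic day 15 and cultured for 7 days, by strand-specific sequencing of total RNA. By genotype the cultures were either WT, for wild type, or KO, for ciRS-7 knockout; this circular RNA is listed in the tables as Cdr1as. The strain label was C57BL/6N-Cdr1asem1Nikr for both genotypes. Normoxic cultures (N) were kept for 12 h at 37 °C in 5% CO2, in medium with glucose at 25 mM and pyruvate at 0.2 mM. Oxygen and glucose deprivation (OGD) was a 12 h incubation at 37 °C in 5% CO2 and 1% O2, in medium to which neither glucose nor pyruvate had been added. Genotype and condition make 4 groups of 5 libraries, written N_WT, OGD_WT, N_KO and OGD_KO, and the labels gave every culture a number and a batch, shared by its N and OGD library. The series asks how loss of ciRS-7 and deprivation change the transcripts of these neurons. For the proteasome genes that gives 4 comparisons within tables and a test of whether the genotypes respond differently.

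The proteasome degrades proteins that carry ubiquitin chains. Its 20S core is a barrel of alpha and beta rings whose inner beta subunits cut peptide bonds, and a 19S particle at either end recognises ubiquitin, unfolds the substrate with a ring of ATPases and feeds it into the barrel. Caps such as PA28 and PA200 can replace the 19S particle, dedicated chaperones assemble the core and the base, and in many cells the transcription factor NRF1 (Nfe2l1) raises the subunit genes together when proteasomes are inhibited. Neurons rely on this system for synaptic protein turnover as well as for clearing damaged proteins.

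The libraries have features that bear on every result below. Cdr1as lay between 5.53 and 6.96 log2 CPM (CPM being counts per 1000000 reads, on the authors' scale) in WT libraries and between -1.11 and 0.96 in KO libraries, over the 4 tables, so no library went against its genotype label. The libraries numbered 1 and 3 lay close to the other 4 libraries of their group, with a median distance per gene of 0.05 to 0.10 on the log2 scale over 10984 genes. Libraries 2, 4 and 5 lay 0.23 to 0.30 away. Within each of the 5 batch labels, the libraries' deviations from their group means nearly cancelled. The variance of a batch's mean deviation was 0.039 to 0.395 of what independent deviations would give, over 7007 genes. The sources used here name no step that would do this, and its cause was not tested. The 5 libraries of a group were therefore not independent in the way the tests assume, and the main counts are given with and without libraries 1 and 3. A single transcript, the mitochondrial ribosomal RNA mt-Rnr2, took 10.1% to 16.4% of recovered reads in N libraries and 13.8% to 32.0% in OGD libraries.

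Because NRF1 and its relatives read promoter DNA, the members' promoters were searched for the antioxidant response element, to which NRF factors bind with small MAF partners. The letters used, TGANNNNGC, are a loose form of it that leaves every base between TGA and GC free. The stretch searched ran from 250 bases before to 50 bases after each RefSeq start site, on both strands. A promoter was matched for 37 of the 44 members, and the letters were present in 20 of them, or 54.1%, against 45.0% of 27025 genes. The share lies near that background. Windows of 30 bases are shown for members of the core and the lid, written on the strand of the gene with the matching letters in capitals (RefSeq, GRCm38.p6).
Psma4 (chr9:54950722-54950751, plus strand): gtgggcagacTGAGCCCGCcccagcactgg
Psmb5 (chr14:54618023-54618052, minus strand): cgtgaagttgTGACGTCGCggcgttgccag
Psmb6 (chr11:70525327-70525356, plus strand): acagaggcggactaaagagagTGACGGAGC
Psmd12 (chr11:107479490-107479519, plus strand): cctgagtggaTGAGCGGGCgacttccggtg
The CCAAT box, a general promoter motif, was present in 12 of the 37 promoters (32.4%, against 41.1% of genes). It is shown for the 3 matched members that were called lower under OGD, Psmd10 and Psme3 in WT and Psmc2 in KO. These were picked for that call. Of the 12 members with the box 2 were called in WT and 1 in KO, and of the 25 without it 0 and 1. Of all genes 44.3% were called in WT and 40.9% in KO. Psmg2, also called lower in WT, had no matched promoter. A link between the box and the calls was not tested. Psmd10 has further matches nearer its start site. Psmc2 also has the antioxidant response letters, but before another RefSeq start site (first window chr5:21786603-21786632).
Psmd10 (chrX:140956924-140956953, minus strand): tgtcatcctgggCCAATtccaccggcaact
Psme3 (chr11:101316183-101316212, plus strand, match on the opposite strand): ccccggagtgccggcgATTGGctgtgacgc
Psmc2 (chr5:21785235-21785264, plus strand): cacggcctcgcgCCAATgcgcgcggccgcc
The 20 members with the antioxidant response letters differed between OGD and N by a median of -0.07 on the log2 scale in WT and -0.03 in KO, and the 17 without them by -0.15 and -0.10. The 12 members with a CCAAT box had a median of -0.08 (WT) and -0.10 (KO), and the 25 without it -0.11 and -0.04. These are descriptions of letters in a window and say nothing about binding.

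All 44 members were transcribed in every library. Recovered reads per member and library ranged from 7, for Psmb10, to 2616, for Psmd2, and 37 members had at least 50 reads in each of the 20 libraries. Per kilobase of transcript, which allows levels of different genes to be compared, N_WT levels ran from 1.52 CPM per kb for Psmb10, the immunoproteasome subunit, to 87.7 for Psmb6, a catalytic subunit of the standard core. The 6 ATPases of the base, Psmc1 to Psmc6, were close to each other, between 17.7 (Psmc3) and 35.9 (Psmc6). The 7 alpha subunits, which form a ring with 1 copy of each, spread from 4.66 (Psma2) to 83.8 (Psma4). The 4 core assembly chaperones, Psmg1 to Psmg4, lay between 3.44 and 12.2, below all 14 constitutive core subunits other than Psma2. Part of this spread is uncertain, because Psma5, Psmb3, Psmb5 and Psme2 share 55.4% to 59.3% of their 50-base words with other genes, and how the authors counted such reads is not given in the sources used here. The immunoproteasome subunits Psmb8 and Psmb9, and the tissue-restricted Psma8 and Psmb11, were not analysed here.

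The first question was how deprivation changed these genes in WT neurons. Under OGD, 3 of the 44 members fell and none rose (limma, Benjamini-Hochberg adjusted p under 0.05 over 14235 genes). The same test called 44.3% of all genes, 21.6% higher and 22.8% lower. Each of the 3 lies outside the core and the 19S particle. They were Psmd10 and Psmg2, chaperones of base and core assembly, and Psme3, the PA28 gamma cap. Groups did not overlap for 5 members, Psmd11 higher and Psmd10, Psmg2, Psme3 and Psmf1 lower, against 26.9% of all genes. At an unadjusted p under 0.05 there were 4 members, against 51.4% of all genes. The share of members called was thus below the background in each of these counts. The plot of fold changes by class shows the members crowded around no change.

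**Figure D1:**
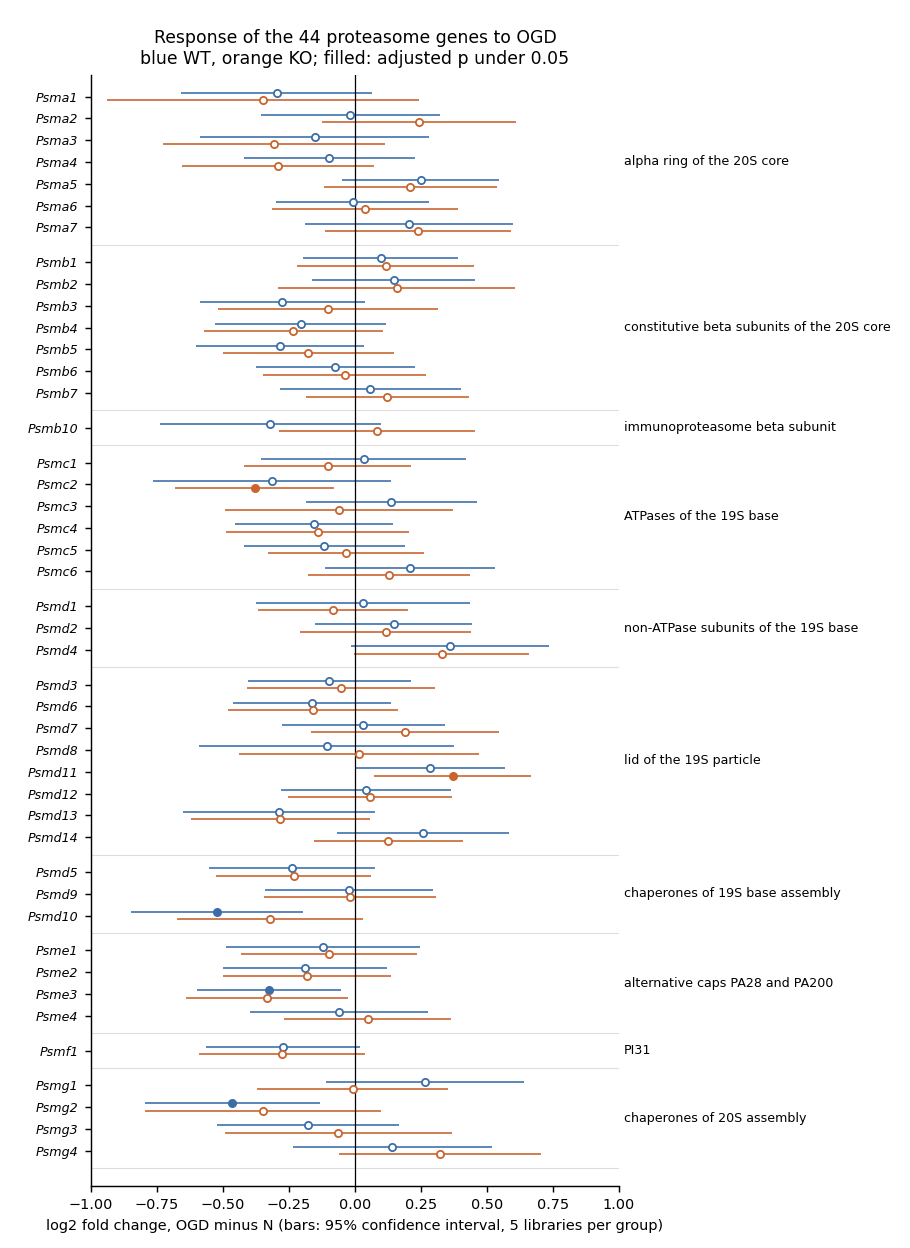
Log2 fold change of each of the 44 proteasome genes, OGD minus N (x axis), by structural class (y axis); points are limma estimates in WT (blue) and KO (orange) cultures and bars their 95% confidence intervals, with 5 libraries per group. Filled points passed an adjusted p under 0.05: Psmd10, Psmg2 and Psme3 in WT and Psmc2 and Psmd11 in KO, and no interval reaches 1 in either direction.

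Psmd10 encodes gankyrin, an ankyrin-repeat chaperone of the base (X:140948429-140956728 on GRCm38). Its log2 CPM was 2.68, 2.75, 2.87, 2.68 and 2.60 in N_WT libraries 1 to 5 and 2.35, 1.89, 2.02, 2.43 and 2.28 in OGD_WT libraries 1 to 5. Every OGD library lay below every N library. It fell by 0.52 (SE 0.16, adjusted p = 0.010 by limma), to 0.70 times its normoxic level, and it was lower under OGD in 5 of 5 cultures. In KO cultures it ran from 2.24 to 2.74 under N and from 1.65 to 2.35 under OGD. Those groups overlapped, every culture was lower under OGD, and the difference of -0.32 missed the threshold (limma adjusted p = 0.13).

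Psmg2 encodes PAC2, a partner of PAC1 (Psmg1) in building the alpha ring. Its log2 CPM was 2.09, 1.80, 2.00, 1.89 and 2.08 in N_WT and 1.56, 1.37, 1.44, 1.50 and 1.66 in OGD_WT, again without overlap. It fell by 0.46 (SE 0.16, limma adjusted p = 0.022), on 19 to 55 reads per library. In KO cultures the groups overlapped, with 1.77 to 2.69 under N and 1.28 to 2.36 under OGD, and the difference of -0.35 was not called (limma adjusted p = 0.20). The other core chaperones were not called in either genotype: differences in WT and KO were 0.27 and -0.01 for Psmg1, -0.18 and -0.06 for Psmg3, and 0.14 and 0.32 for Psmg4.

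Psme3 encodes PA28 gamma, a nuclear cap that promotes ubiquitin-independent degradation (11:101316213-101323537 on GRCm38). Its log2 CPM was 5.49, 5.62, 5.48, 5.28 and 5.36 in N_WT and 5.10, 5.15, 5.11, 5.13 and 5.12 in OGD_WT. The groups did not overlap, and the OGD libraries were within an SD of 0.02 of each other against 0.13 under N. It fell by 0.33 (SE 0.13, limma adjusted p = 0.048). In KO cultures the difference was also -0.33, but the groups overlapped and it was not called (limma adjusted p = 0.076). The other caps were not called. Psme1 and Psme2, the alpha and beta chains of the interferon-induced PA28 ring, differed by -0.12 and -0.19 in WT and by -0.10 and -0.18 in KO, and Psme4, the single chain of PA200, by -0.06 and 0.05. Psmf1, which encodes the inhibitor PI31, was lower in 5 of 5 cultures of either genotype, by -0.27 in WT and -0.28 in KO, and was not called in either (limma adjusted p = 0.12 and 0.15).

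The calls on Psmg2 and Psme3 depended on libraries 1 and 3, which lay close to their group means. With the replicate block, which compares the N and OGD library of each culture, Psmd10 and Psmg2 were called and Psme3 was not (limma adjusted p = 0.057). Psme3 was also not called with median-of-ratios scaling (limma adjusted p = 0.057 and 0.055 with prior counts of 2 and 0.5) or with voom (0.051). Leaving out OGD_WT library 3, N_WT library 1 or N_WT library 3 left 1 call each time. Psmd10 was called in all 10 fits that left out a library, Psmg2 in 7 and Psme3 in 4, the last also being lost without OGD_WT library 1 or 5 or N_WT library 2. With cultures 2, 4 and 5 only, 0 members were called against 2411 genes of all, and 0 had an unadjusted p under 0.05. In these cultures Psmd10 differed by -0.48 (limma adjusted p = 0.33).

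The same question in KO neurons gave 2 calls among the 44 members, against 40.9% of 14375 genes (21% higher and 19.9% lower). Psmc2 fell and Psmd11 rose, both subunits of the 19S particle. Groups did not overlap for 1 member, Psmc2, against 25.8% of all genes, and 3 members had an unadjusted p under 0.05, against 49.5%. None of the 5 genes called in either genotype was called in both. The per-library plot shows how the 5 genes lay in both genotypes.

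**Figure D2:**
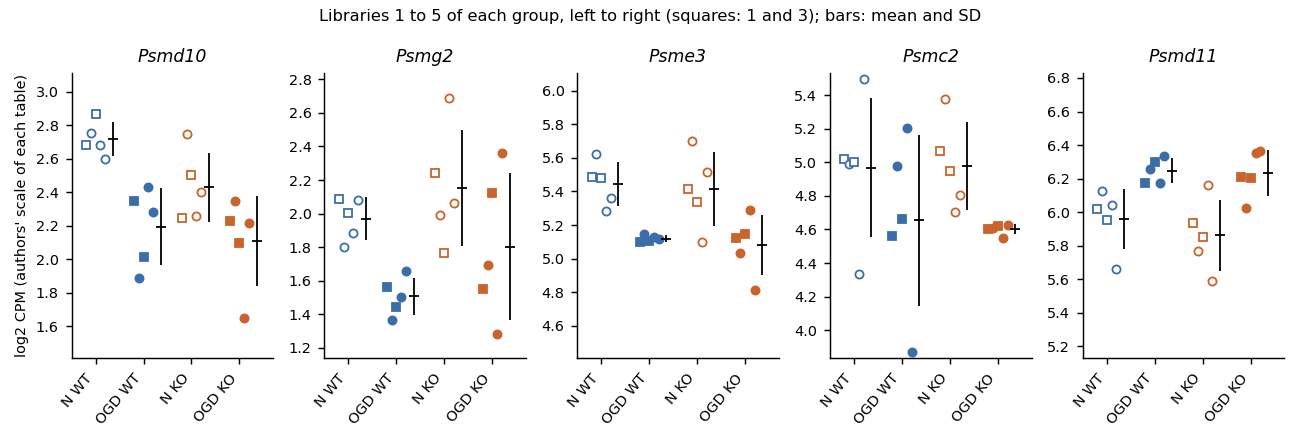
Log2 CPM on the authors' scale (y axis) of the 5 members called in either genotype, for libraries 1 to 5 of each group from left to right; open symbols are N and filled symbols OGD, blue is WT and orange KO, squares mark libraries 1 and 3, and bars give the mean and SD. Psmd10, Psmg2 and Psme3 do not overlap between N and OGD in WT, Psmc2 does not overlap in KO, and Psmd11 does not overlap in WT.

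Psmc2 encodes Rpt1, an ATPase of the ring that unfolds substrates (5:21785283-21803787 on GRCm38). Its log2 CPM was 5.07, 5.38, 4.95, 4.70 and 4.81 in N_KO and 4.60, 4.61, 4.62, 4.55 and 4.63 in OGD_KO. Every OGD library lay below every N library, and the SD was 0.03 under OGD and 0.26 under N. It fell by 0.38 (SE 0.14, limma adjusted p = 0.042). In WT cultures the difference was of like size, -0.31, but the libraries spread from 4.34 to 5.49 under N and from 3.87 to 5.20 under OGD, and it was not called (limma adjusted p = 0.25). The other 5 ATPases differed by between -0.16 (Psmc4) and 0.21 (Psmc6) in WT and between -0.14 and 0.13 in KO, with none called.

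Psmd11 encodes Rpn6, a lid subunit that braces the 19S particle against the core (11:80428615-80473248 on GRCm38). Its log2 CPM was 5.94, 5.77, 5.85, 6.16 and 5.59 in N_KO and 6.21, 6.03, 6.21, 6.35 and 6.37 in OGD_KO. N_KO library 4 lay above OGD_KO library 2, so the groups overlapped, while every culture was higher under OGD. It rose by 0.37 (SE 0.14, limma adjusted p = 0.045). In WT cultures it was 5.66 to 6.12 under N and 6.17 to 6.34 under OGD, without overlap, and the difference of 0.29 was not called (limma adjusted p = 0.094). With reads scaled by library total, which moved the median of all genes to -0.28, the difference was 0.08 (limma adjusted p = 0.68). Relative to each scale's own median it was 0.37 on the authors' scale and 0.36 under library totals. Of its 50-base words, 18.9% also occur in other genes.

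Both KO calls were lost with the replicate block (limma adjusted p = 0.069 for each), where 0 members were called and 2 had an unadjusted p under 0.05. Psmd11 was also not called with median-of-ratios scaling (limma adjusted p = 0.052 with either prior count). With voom there were 2 calls. Leaving out library 1 or 3 of OGD_KO or of N_KO gave 0 calls, leaving out N_KO library 2 gave 1 and leaving out N_KO library 4 gave 4. Psmc2 was called in 3 of the 10 fits that left out a library (without OGD_KO library 5 or N_KO library 4 or 5) and Psmd11 in 2 (without OGD_KO library 2 or N_KO library 4). With cultures 2, 4 and 5 only, 0 members were called and 0 had an unadjusted p under 0.05, against 2341 genes called of all.

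The core gave no call in either genotype on the authors' scale, where 44.3% and 40.9% of all genes were called. Under library-total scaling, which called 51.8% and 47.1% of all genes, 5 core subunits were called lower in WT (Psma1, Psmb3, Psmb4, Psmb5 and Psmb10) and 4 in KO (Psma3, Psma4, Psmb4 and Psmb5). Of the 15 core subunits, 5 lay above 0 and 10 below in WT, and 8 above and 7 below in KO, with medians of -0.07 and 0.04. At an unadjusted p under 0.05 the whole family had 4 members in WT and 3 in KO, none of them core subunits, and voom on recovered reads called 2 members in either genotype, none of them core subunits. The 3 catalytic subunits of the standard core, Psmb6, Psmb7 and Psmb5, with caspase-like, trypsin-like and chymotrypsin-like activity, differed by -0.07, 0.06 and -0.28 in WT and by -0.04, 0.12 and -0.18 in KO. Psmb5 ran from 3.25 to 3.92 log2 CPM in N_WT and from 3.21 to 3.62 in OGD_WT, with overlapping groups. Psmb10, the immunoproteasome counterpart of Psmb7, had the fewest reads of all members, with log2 CPM of 1.15 ± 0.29 (SD, n = 5) in N_WT, 0.83 ± 0.30 in OGD_WT, 1.06 ± 0.29 in N_KO and 1.15 ± 0.07 in OGD_KO, with none of these differences called.

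Of the 17 subunits of the 19S particle, 10 lay above 0 in WT and 8 in KO, with medians of 0.03 and -0.03. The largest difference upward in WT was that of Psmd4 (Rpn10), a ubiquitin receptor of the base, at 0.36 (SE 0.18), with overlapping groups and a limma adjusted p of 0.11, and it was 0.33 in KO (limma adjusted p = 0.10). Psmd14 (Rpn11), the deubiquitinase of the lid, differed by 0.26 in WT and 0.13 in KO, and was not called. Of the 12 caps, inhibitor and chaperones, 10 lay below 0 in each genotype, with medians of -0.18 and -0.14. Of all genes, 7387 of 14235 lay below 0 in WT and 7161 of 14375 in KO, and the difference between classes was not tested.

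The members' differences were small beside those of all genes, as a description. Their median absolute log2 fold change was 0.16 in WT and 0.15 in KO, where all genes had 0.37 and 0.36. The extremes were -0.52 (Psmd10) and 0.36 (Psmd4) in WT and -0.38 (Psmc2) and 0.37 (Psmd11) in KO, and 35.0% and 48.0% of all genes exceeded the largest member. The 95% confidence intervals of all 44 members lay within 1 log2 unit of no change in both genotypes, as did those of 73.0% and 73.6% of all genes. Within 0.5 log2 units lay 20 intervals in WT and 22 in KO, so for the others a difference of that size lies within the interval. Of all genes, 21.3% in WT and 20.1% in KO had intervals within 0.5. The median SE was 0.16 for the members in both genotypes and 0.17 for all genes.

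**Figure D3:**
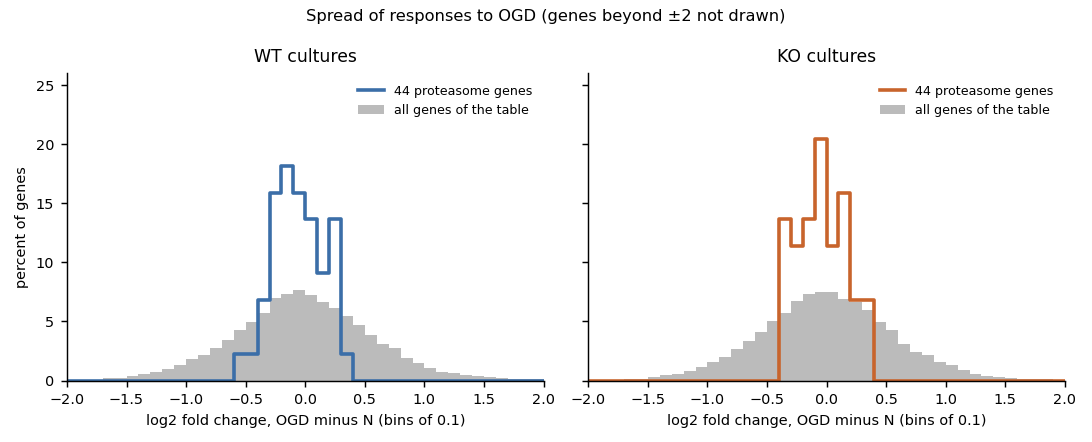
Share of genes (y axis, percent) by log2 fold change, OGD minus N, in bins of 0.1 (x axis), for all genes of each table (grey bars, 14235 in WT and 14375 in KO; those beyond 2 log2 units are not drawn) and the 44 proteasome genes (lines). The members occupy -0.52 to 0.36 in WT and -0.38 to 0.37 in KO, inside the wider spread of all genes.

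WT and KO cultures share no library in the OGD comparisons, so the members' responses can be set side by side. Of the 44, 35 had the same sign in both genotypes, 13 above 0 and 22 below, and 9 had opposite signs. Across the members the log2 fold changes had a Pearson r of 0.82 and a Spearman rho of 0.83. Neither measure was taken over all genes, so the agreement is not shown to be particular to the members. This is a description over genes, which are not independent replicates, and 3 of the 5 batch labels (1, 3.1 and 3.3) hold libraries of both genotypes.

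The direction of the family as a whole depended on the scaling. On the authors' scale, the 44 members summed to 1957 to 2158 CPM in N_WT and 1832 to 2332 in OGD_WT, and to 1820 to 2270 in N_KO and 1846 to 2016 in OGD_KO, with overlapping groups in both genotypes. Per 1000000 recovered reads, they made up 2205 to 2303 in N_WT and 1696 to 2156 in OGD_WT, and 1989 to 2538 in N_KO and 1576 to 1858 in OGD_KO, with no overlap in either genotype. The larger share of mt-Rnr2 in OGD libraries moved with this difference. Its part in it was not tested. Scaling by library total moved the median of all genes to -0.30 in WT and -0.28 in KO. It called 18 members lower in WT and 16 in KO, with none higher, where 40.4% and 36.8% of all genes were called lower. Relative to the median of all genes, the members' median was -0.06 in WT and -0.05 in KO under that scaling, and -0.06 and -0.05 on the authors' scale.

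**Figure D4:**
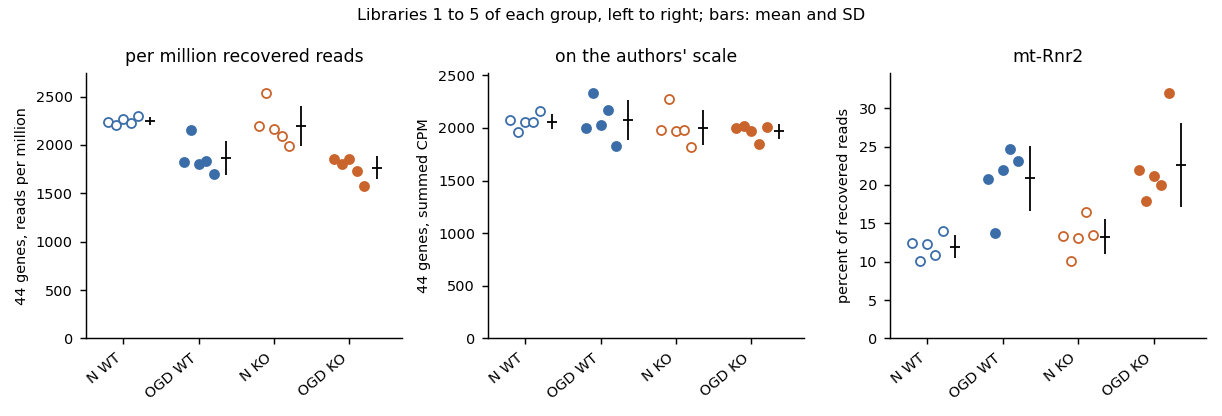
Summed level of the 44 proteasome genes as a share of recovered reads (left, y axis in reads per 1000000) and on the authors' scale (middle, y axis in summed CPM), and share of mt-Rnr2 (right, y axis in percent of recovered reads), for libraries 1 to 5 of each group from left to right with mean and SD. N and OGD libraries separate in the left panel and overlap in the middle one, while mt-Rnr2 reaches 32.0% in OGD_KO library 5.

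In these bulk libraries, fewer cells of a type and less RNA per cell cannot be told apart. Marker genes of several cell types were called under OGD, where 44.3% of all genes were called in WT and 40.9% in KO. Of 9 neuron markers 5 fell in WT and 6 in KO, with none rising, where 22.8% and 19.9% of all genes were called lower, and their summed level was 4001 to 5298 CPM in N_WT, 2781 to 4876 in OGD_WT, 4371 to 4556 in N_KO and 3054 to 3878 in OGD_KO. All 8 proliferation markers rose in both genotypes, where 21.6% and 21% of all genes were called higher, from 444 to 583 CPM in N_WT to 819 to 1434 in OGD_WT and from 410 to 664 in N_KO to 966 to 1310 in OGD_KO. Of 7 measured astrocyte markers 4 rose and 1 fell in WT, and 3 rose in KO, with summed levels of 1045 to 1239 CPM in N_WT, 1525 to 2011 in OGD_WT, 777 to 1412 in N_KO and 1388 to 1934 in OGD_KO. Of 7 oligodendrocyte lineage markers 1 rose and 2 fell in WT and 3 rose in KO, with summed levels of 282 to 350.2 CPM in N_WT, 324 to 481 in OGD_WT, 204 to 387 in N_KO and 273 to 391 in OGD_KO. Only 2 of 8 endothelial and pericyte markers were measured, of which 1 rose and 1 fell in WT and 1 rose in KO, with summed levels of 2.91 to 7.53 CPM over all libraries. None of the 9 microglia markers was among the genes analysed. The oligodendrocyte lineage calls in both genotypes and the astrocyte calls in KO lay near the share of all genes called in either direction. The part of the marker shifts in the members' values was not tested.

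The second question was whether loss of ciRS-7 changed the proteasome genes. No member was called between KO and WT cultures, under N or under OGD, where limma called 5 of 14152 genes (0.0353%, with 0.0212% higher and 0.0141% lower) and 4 of 14185 (0.0282%, with 0.0211% higher and 0.00705% lower). No member had an unadjusted p under 0.05 in either comparison, against 1.81% and 1.78% of all genes, and voom also called 0 members. Both shares lie below the 0.05 of genes that would pass with no difference at all. The p-values of these comparisons were thus too large, for a cause that was not tested. The 0 calls therefore do not show that the genotypes are alike. The median log2 difference, KO minus WT, was -0.01 under N and -0.04 under OGD, and the largest were -0.26 (Psmd10) under N and 0.32 (Psmb10) under OGD. All 44 confidence intervals lay within 1 log2 unit in both comparisons, and 37 under N and 33 under OGD lay within 0.5. Of all genes, 98.8% under N and 98.1% under OGD lay within 1, and 73.3% and 59.4% within 0.5. Of the 5 numbers, only number 1 had its WT and KO cultures in the same batch.

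No difference between the genotypes in the response to OGD was detectable for any member. The interaction of genotype and OGD, fitted over the 20 libraries on 1 scale with the culture as a block, called 0 of 44 members and 0 of 13688 genes, by limma and by voom. At an unadjusted p under 0.05 there were 0 members, against 0.723% of all genes. That share too lies below 0.05, so the p-values of this test were also too large. The correlation fitted for the block was -0.19. For the 5 genes called in 1 genotype, the difference of responses, KO minus WT, was 0.18 for Psmd10, 0.10 for Psmg2, -0.03 for Psme3, -0.09 for Psmc2 and 0.06 for Psmd11. The interaction had an SE of 0.25 for Psmd10 and 0.30 for Psmg2, so differences of the size of the responses themselves lie within the intervals.

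Genes that work with the proteasome were taken from 5 lists. The list of the NRF1 pathway held 10 genes, of which 3 rose and 1 fell in each genotype, with a median log2 fold change of -0.21 in WT and -0.10 in KO. These 4 calls are near the share of all genes called, 44.3% in WT and 40.9% in KO, and the calls in the lists that follow make up a smaller share. Maff, a small MAF partner, rose by 2.83 in WT and 2.74 in KO, and Mafk by 1.15 and 0.83, with no overlap between groups (limma adjusted p = 0.0017 or lower for each). Nfe2l2, the NRF2 gene that answers oxidative stress, rose by 1.93 and 1.84, from 2.97 ± 0.41 to 4.89 ± 0.34 log2 CPM (SD, n = 5) in WT. Nfe2l3 fell by 1.33 in WT and 1.60 in KO, to a low level. With all libraries on 1 scale, its log2 CPM was 0.14 ± 0.36 in OGD_WT and -0.21 ± 0.76 in OGD_KO (SD, n = 5). Nfe2l1 itself, at 7.37 log2 CPM in N of either genotype, differed by -0.26 in WT and -0.30 in KO and was not called (limma adjusted p = 0.19 and 0.14). Its processing factors Ddi2 and Ngly1 were not called either.

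Subunits and partners that lie outside the naming rule were mixed. Of 10 measured genes, 2 fell in WT, and 1 rose and 1 fell in KO, with medians of -0.09 and -0.15. Of all genes 44.3% were called in WT and 40.9% in KO. Adrm1 (Rpn13), a ubiquitin receptor of the base, fell by 0.42 in both genotypes (limma adjusted p = 0.039 in WT and 0.016 in KO), a call lost in WT with the replicate block (limma adjusted p = 0.057) and when OGD_WT library 1, 2 or 3 or N_WT library 1, 2, 3 or 5 was left out (limma adjusted p up to 0.11). Sem1, the small lid subunit, rose by 0.45 in KO (limma adjusted p = 0.035, and 0.061 with the replicate block; also lost without OGD_KO library 1, 2 or 3 or N_KO library 1, 3 or 5, with adjusted p up to 0.10) and differed by 0.27 in WT without a call. Under library-total scaling Sem1 differed by 0.16 in KO and -0.01 in WT, a drop about as large as that of the median of all genes. Ube3c, a ligase that extends ubiquitin chains on the proteasome, fell by 0.49 in WT (limma adjusted p = 0.015) and differed by -0.35 in KO (limma adjusted p = 0.068). Pomp, the maturation factor of the core, differed by 0.15 in WT and 0.00 in KO, and was not called.

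Of 4 genes for ubiquitin and its E1 enzymes, 1 rose and none fell in each genotype, with medians of 0.19 and 0.23. That count is near the share of all genes called higher, 21.6% in WT and 21% in KO. Rps27a, which encodes ubiquitin fused to a ribosomal protein, rose by 0.87 in WT and 0.92 in KO, without overlap between groups. Ubb, a polyubiquitin gene, differed by 0.26 and 0.27 and was not called. The E1 enzymes Uba1 and Uba6 were not called, and neither was any of the 8 genes of the VCP and shuttle list, in either genotype.

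Antigen presentation uses peptides that the proteasome makes. Of 9 genes for it and for interferon signalling, 2 rose and 1 fell in WT and 1 rose and 1 fell in KO, with medians of 0.20 and 0.15. These counts lie below the 44.3% of all genes called in WT and 40.9% in KO. B2m, the light chain of class I molecules, rose by 0.51 in WT and 0.55 in KO. Under library-total scaling it differed by 0.25 and 0.28 and was not called, a drop about as large as that of the median of all genes. The call in WT was also lost without OGD_WT library 3 or 4 or N_WT library 1 or 2 (limma adjusted p up to 0.078), and that in KO without OGD_KO library 1 (0.053). H2-K1, a class I heavy chain, rose by 0.97 in WT, from 0.50 ± 0.46 to 1.47 ± 0.40 log2 CPM (SD, n = 5), on 8 to 30 reads per library, and differed by 0.49 in KO (limma adjusted p = 0.097). The peptide transporter Tap1 fell by 0.71 in WT and differed by -0.48 in KO (limma adjusted p = 0.057), and H2-D1 fell by 0.44 in KO and differed by -0.41 in WT, where it was called with the replicate block (limma adjusted p = 0.037). The call on H2-D1 in KO was lost without OGD_KO library 3 or N_KO library 1 or 3 (limma adjusted p up to 0.066). The interferon-responsive factors Irf1 and Irf9 were not called. With cultures 2, 4 and 5 only, the calls on Adrm1, Sem1, Ube3c, B2m, H2-K1, Tap1 and H2-D1 were lost, while differences kept their direction.

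**Figure D5:**
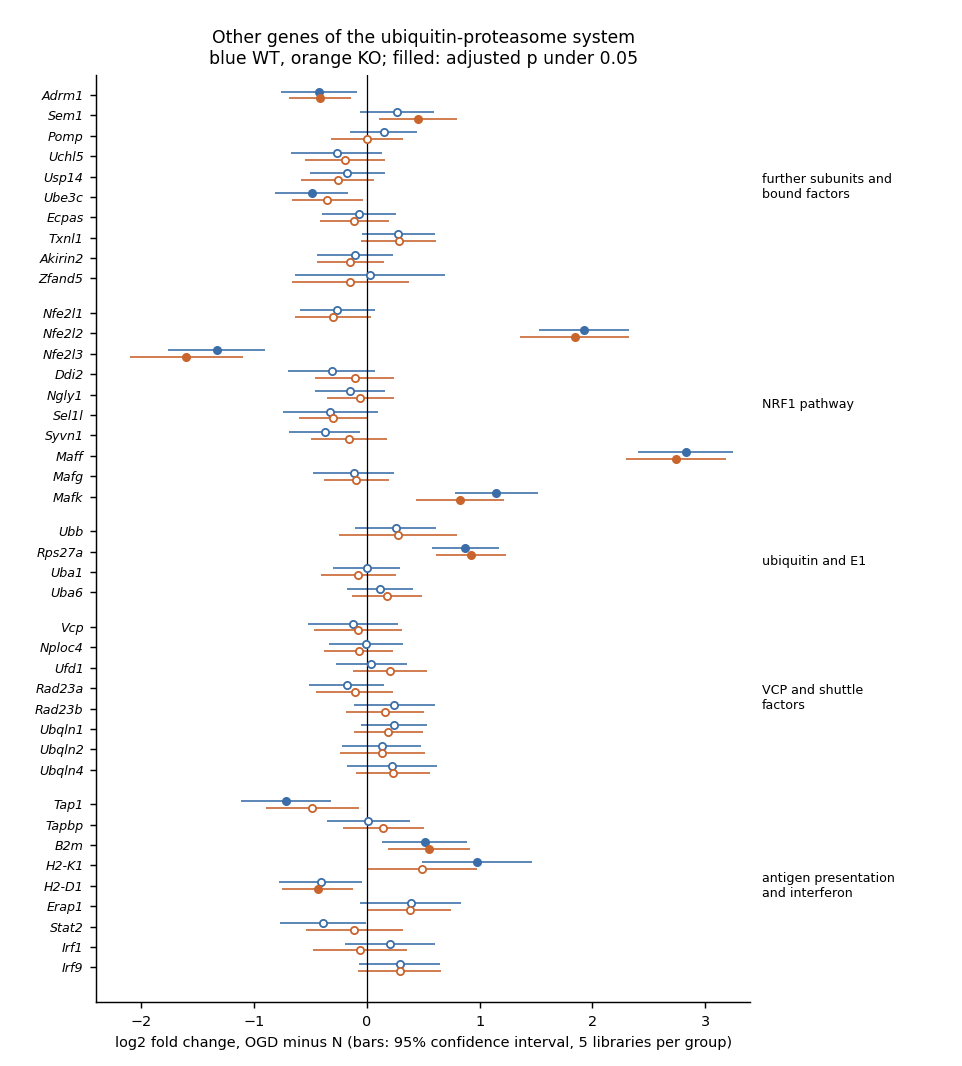
Log2 fold change, OGD minus N (x axis), of 41 other genes of the ubiquitin-proteasome system and antigen presentation (y axis, by list), in WT (blue) and KO (orange); bars are 95% confidence intervals with 5 libraries per group, and filled points passed an adjusted p under 0.05. Maff, Mafk and Nfe2l2 lie far to the right and Nfe2l3 to the left, while the genes of the VCP and shuttle list stay near 0.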

How the data were processed

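RNA was measured in 20 libraries. The deposited values are log2 CPM from the authors, 1 table per comparison, each with its own scaling. The build is mm10 per the submitters' processing notes, and the aligner, counter, gene filter and any batch step are not given in the sources used here. In each gene and group the lowest and highest deposited values had been drawn in (0.6 of the extreme plus 0.4 of its neighbour), as inferred from the values. This was undone, after which at least 99.91% of values were whole reads (within 0.05 reads, up to 500 reads), against 45.5% to 92.8% as deposited. Recovered reads per library ranged from 7071506 to 16658618.

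Each comparison was fitted in its own table with limma 3.58.1 in R 4.3.3 (lmFit, eBayes with trend), 2-sided, with Benjamini-Hochberg adjustment over all genes. The interaction used recovered reads with median-of-ratios scaling and a prior count of 2. Alternatives were the deposited values, other scalings, priors and filters, voom, a replicate block, batch terms, and leaving out libraries. The fits that scaled by library total, those of cultures 2, 4 and 5 only, and those with a batch term for OGD were chosen after seeing the data. On simulated data for OGD against N in WT (14235 genes, 200 changed), 98.2% of genes changed by 1 log2 unit and 29.8% of those changed by 0.5 were recovered, with 3.82% false calls. Values drawn in as deposited gave 32.8% false calls. Simulated libraries were independent, which the deposited ones are not. The 200 changed genes were drawn only from genes above a read threshold, and 44.3% of genes were called in the data. The adjustment was thus stricter in the simulation, and its recovered shares do not carry over to the data.

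N and OGD libraries of the same number share a culture label and batch, so the block pairs them. Their deviations correlated between -0.64 and 0.06 in WT and between -0.79 and -0.07 in KO. Genes named are the catalytic subunits, caps, PI31, core chaperones, called members, fixed partners, and in each pathway list the called genes with the largest rise and fall, with a few others chosen after their values were seen. Some genes of the pathway lists are not reported here. Members and lists were chosen with earlier results of these data known. Levels per kilobase used GENCODE M21 transcripts. P-values measure the spread between libraries, whose origin from separate animals is not stated.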

Additional observations from a re-analysis of the deposited data

Results flagged for a closer look

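Among the members' values, a Dixon test at the 95% level set 1 library apart from its group in 10 of 184 groups. Independent libraries of equal spread would give about 9.2. Values below are log2 CPM. In OGD_WT, library 5 was low for Psma1 at 4.04 (others 4.63 to 4.84) and for Psmg4 at 2.31 (others 3.01 to 3.22), and library 4 was low for Psma7 at 4.82 (others 5.31 to 5.41). In N_KO, library 1 was low for Psmb10 at 0.55, library 4 was high for Psmc1 at 6.04, and library 5 was low for Psmg1 at 2.12. In OGD_KO, library 2 was low for Psmb6 at 5.65, library 4 was low for Psmc2 at 4.55 (others 4.60 to 4.63), and library 5 was high for Psme1 at 6.60. The summed CPM of the 44 members in OGD_KO library 4 was 1846, against 1970 to 2016 in the other 4. The number found is close to 9.2, but these libraries were neither independent nor equally spread. The test therefore cannot say how many would be set apart by chance here. Apart from the Psmb10 value, from library 1, all came from libraries 2, 4 and 5, which lay farther from their groups, as given above.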

How the results depend on the processing

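In WT 3 members were called, and in KO 2. The genes called of all moved too, from 6313 in WT and 5884 in KO. Values as deposited gave 10 members in WT and 5 in KO (8280 and 8024 of all genes). Scaling by library total gave 18 and 16 (7369 and 6768). Median-of-ratios scaling gave 2 in WT and 1 in KO with either prior count, and voom 2 and 2. With the replicate block, which pairs the N and OGD libraries of a culture, WT gave 2 and KO gave 0 (5681 and 4829). A batch term gave 1 in WT and 0 in KO (5494 and 4917). Cultures with batch labels 3.1, 3.2 and 3.3, pooled, gave 1 and 0 (4916 and 2341). Cultures 2, 4 and 5 alone gave 0 and 0 (2411 and 2341). In KO the pooled labels hold only cultures 2, 4 and 5, so these are the same fit. Leaving out 1 library at a time gave 1 to 4 calls in WT and 0 to 4 in KO. The comparisons of KO with WT and the interaction had 0 member calls under every alternative run, with the block included. Of the values of single named genes, 2407 stayed on their side of the threshold, 90 lost a call, 45 gained one, 12 moved without a call and none reversed. These values pool the 4 comparisons. No named gene was called in the main fits of KO against WT, so no call could be lost there. The 90 losses all fall on OGD calls, which were less stable than the pooled counts show. The causes of these differences were not tested, except that fits with fewer libraries have less power by construction. Depth limits Psmb10 (7 reads at the lowest), Psmg2 (17) and Psmd10 (23) most by median reads.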
